A study of Mus musculus with 15 samples.

Results

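The genes described here are the nuclear-encoded subunits of the mitochondrial respiratory chain and ATP synthase in mouse large intestine. They were chosen by symbol: protein-coding genes beginning with Ndufa, Ndufb, Ndufc, Ndufs, Ndufv, Sdha to Sdhd, Uqcr, Cox4 to Cox8 or Atp5, without the Ndufaf and Sdhaf assembly factors. Of 86 such annotated genes, 12 had a row under their own Ensembl identifier in all 15 deposited tables, which was the rule for membership, of 24657 annotated genes with such a row in all. The members are Ndufa1, Ndufa2 and Ndufb3 of complex I, Uqcr10 and Uqcrfs1 of complex III, Cox6a2, Cox7a2, Cox7b2, Cox8a, Cox8b and Cox8c of complex IV, and Atp5s of complex V, with none of complex II. The rule sets no threshold on level, though it was set with earlier results of these data known. Having an own row is not independent of depth. Annotated rows numbered 30609 in the deepest library and 35415 in the library with the fewest fragments. The other 74 genes lacked a row in at least 1 table, and 28 of the 86 never had one, because the tables also hold loci assembled separately in each library under identifiers that no other library shares. Missing rows were then filled by an assembled locus that shared at least 0.5 of the joint span with the gene. With these matched loci, 81 of the 86 genes had a value in every library. They were 35 of complex I, 4 of complex II, 8 of complex III, 17 of complex IV and 17 of complex V. The filter on level used below kept 1097 of the 24657 genes with rows of their own, and 11493 of 42985 with matched loci. The 12 members are described first, and the 81 genes, called the family, after them.

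The respiratory chain sits in the inner mitochondrial membrane. Complex I takes electrons from NADH and complex II takes them from succinate, complex III passes them from ubiquinol to cytochrome c, complex IV hands them to oxygen, and complex V uses the proton gradient so built to make ATP. A few core subunits are encoded by mitochondrial DNA, and most others by nuclear genes that are expressed in nearly all cell types, with a few paralogs restricted to muscle, heart, testis or lung. Absorptive cells of the colon are rich in mitochondria and burn butyrate made by bacteria.

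RNA was sequenced from the large intestine of male C57Bl/6 mice aged 4 weeks, in 5 groups of 3 libraries. All mice were gavaged on 3 days and their tissue was taken 12 h after the last dose. The vehicle group (replicates 2, 4 and 5) was given Chremophor EL with 10% DMSO. Cymopol is a brominated hydroquinone that the green alga Cymopolia barbata makes; its high dose was 1.4 mmol/kg (replicates 11, 12 and 14) and its low dose 0.3 mmol/kg (replicates 33, 34 and 35). For a non-polar algal extract the high dose was 1.0 g/kg (replicates 21, 23 and 25) and the low dose 0.3 g/kg (replicates 26, 27 and 29). The sources used here do not say that each library is a separate mouse, so the p-values measure the spread between these libraries, which may be technical. The tissue was taken whole, and in such bulk RNA fewer cells of a type and less RNA per cell cannot be told apart.

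Depth and RNA content differed between libraries and partly moved with the groups. The fragments estimated to fall in protein-coding genes numbered 288299 to 342013 for the cymopol high dose, 174890 to 556436 for the extract high dose, 31853 to 183351 in the cymopol low dose, 28513 to 106746 in the extract low dose and 25233 to 226529 in the vehicle. Loci between genes held 46.8% of the fragments of vehicle 2, 25.1% of vehicle 5 and 23.5% of extract low dose 26, against at most 16.5% in the other 12 libraries. Every vehicle comparison below rests on these vehicle libraries, and the 4 comparisons with the vehicle share them. The part that depth and intergenic RNA have in the results was not tested.

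The sequences just before the start sites of some of these genes are shown because the family is known as a target of NRF1 and of GABP, an ETS factor, which bind such promoters. RefSeq promoters (GRCm38.p6, 250 bases before to 50 after the start) were matched by symbol to 67 family genes. The core of the NRF1 site (CGCATGCG, either strand) was in 9 of them, or 13.4%, against 2.07% of all 27025 genes with a promoter in that table. The core of the ETS site (CCGGAAG, either strand) was in 16, or 23.9%, against 9.93%, and the YY1 core (AAGATGG, either strand) in 10, or 14.9%, against 7.28%. Of the 8 members with a promoter, Cox8a alone held any of the 3 motifs. The stretches below run from 80 bases before to 10 bases after the start site, 5′ to 3′ on the gene's strand, with matches to the NRF1 or ETS core in capitals. They belong to the ubiquitous Cox8a and its muscle paralog Cox8b, which has no match, and to the genes of complexes II to V named below that have a match in this window. All these genes lie on the minus strand of the genome. An ETS match printed as CTTCCGG is the reverse complement of the core.
Sdhd, chr9:50603840-50603929: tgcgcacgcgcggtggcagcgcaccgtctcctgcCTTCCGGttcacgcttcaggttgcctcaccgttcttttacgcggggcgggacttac
Uqcr11, chr10:80406812-80406901: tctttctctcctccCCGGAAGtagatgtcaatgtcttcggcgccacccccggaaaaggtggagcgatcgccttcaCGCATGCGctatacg
Cox6b1, chr7:30626105-30626194: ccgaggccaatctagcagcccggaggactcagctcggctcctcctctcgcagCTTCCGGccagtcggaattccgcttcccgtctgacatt
Cox8a, chr19:7217607-7217696: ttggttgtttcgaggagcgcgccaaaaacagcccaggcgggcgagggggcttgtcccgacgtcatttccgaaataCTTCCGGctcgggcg
Cox8b, chr7:140900437-140900526: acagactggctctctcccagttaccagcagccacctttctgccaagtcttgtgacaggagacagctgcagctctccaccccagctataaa
Atp5h, chr11:115419910-115419999: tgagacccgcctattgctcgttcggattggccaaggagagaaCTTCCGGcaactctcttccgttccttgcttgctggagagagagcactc

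On the log2(FPKM + 1) scale, 8 of the 9 tested members had a higher mean in the cymopol high dose than in the vehicle. All 9 did in the extract high dose. The shares of all genes tested were 76.8% and 75%, and none of the members passed the test. Values are FPKM, fragments per transcript length and library size, and libraries are given in the order of the replicate numbers above. Ndufa1, an X-linked accessory subunit that complex I needs for its assembly (chrX:37187588-37191163, 3 exons, 419 exonic bases, GRCm38), was listed at 0, 0 and 11.4 FPKM in the vehicle, at 17.9, 23.5 and 15.8 in the cymopol high dose, while the extract high dose stood at 18.9, 27.2 and 7.94. Its low dose values were 0, 5.39 and 21.2 for cymopol and 0, 8.27 and 9.55 for the extract. All 3 cymopol high dose libraries thus lay above the vehicle, while extract high dose 25 fell below vehicle 5. The vehicle 5 value rests on 1 estimated fragment, and the cymopol high dose values on 9.59 to 13. The difference of mean log2(FPKM + 1) from the vehicle was 3.10 ± 1.37 (SE) in the cymopol high dose (adjusted p = 0.335, limma) and 2.89 ± 1.37 in the extract high dose (adjusted p = 0.385, limma).

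Ndufa2, an accessory subunit of the NADH-oxidising arm, was listed at 0, 2.33 and 0 FPKM in the vehicle, at 12.1, 2.72 and 6.83 in the cymopol high dose, while the extract high dose stood at 15.05, 12.4 and 2.80. The listed values of both high dose groups lay above those of every vehicle library, with differences of 2.28 ± 1.16 (SE, adjusted p = 0.377, limma) and 2.65 ± 1.16 (adjusted p = 0.374, limma) on the log2(FPKM + 1) scale. Its low dose values were 0, 3.02 and 18.4 for cymopol, with the highest value of all 15 libraries in replicate 35, and 0, 3.53 and 6.61 for the extract. In vehicle 2, where Ndufa2 is listed at 0, another assembled locus on its exons held an estimated 32.05 fragments, against 2.23 to 22.4 for Ndufa2 itself in the high dose libraries, and in cymopol low dose 33 such a locus held 14.3. Ndufa2 overlaps another annotated gene, and how reads in the shared stretch were assigned is not given in the sources used here. Ndufb3, an accessory subunit of the membrane arm (chr1:58586384-58595964, 3 exons, 763 exonic bases), was listed at 0, 0.960 and 0 FPKM in the vehicle, 2.33, 2.75 and 8.45 in the cymopol high dose, while the extract high dose stood at 9.64, 2.15 and 2.03. It too showed no overlap, with differences of 1.97 ± 0.833 (SE, adjusted p = 0.334, limma) and 1.90 ± 0.833 (adjusted p = 0.374, limma). In the low doses Ndufb3 stayed at or under 3.17 FPKM and overlapped the vehicle.

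Of the complex III members, Uqcr10, a small subunit at the cytochrome c1 side (chr11:4701973-4704342, 3 exons, 584 exonic bases), was the more abundant. Its values were 0.853, 28.6 and 41.4 FPKM in the vehicle, 108, 118 and 74.8 in the cymopol high dose, while the extract high dose stood at 58.2, 154 and 65.2. Every high dose library exceeded every vehicle library, and the differences, 2.91 ± 1.74 (SE, adjusted p = 0.467, limma) and 2.67 ± 1.74 (adjusted p = 0.511, limma), were under 2 SE. The cymopol low dose alone ran from 0 to 155 FPKM, the highest value of all 15 libraries. Uqcrfs1, the Rieske iron-sulfur protein that takes electrons from ubiquinol (chr13:30540308-30545362, 2 exons, 1363 exonic bases), was at 4.80, 18.2 and 30.4 FPKM in the vehicle, 17.8, 33.6 and 26.6 in the cymopol high dose, while the extract high dose stood at 19.7, 35.8 and 18.9. Its groups overlapped, with differences of 0.79 ± 1.39 (SE) and 0.71 ± 1.39. The sign of both turned to -0.50 and -0.41 when FPKM was rescaled by median-of-ratios factors.

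Complex IV gave 6 members, of which Cox8a was the highest in mean FPKM of all 12. Cox8a, the ubiquitous form of a small subunit (chr19:7215153-7217616, 3 exons, 619 exonic bases), was at 49.0, 30.4 and 102 FPKM in the vehicle, 162, 164 and 128 in the cymopol high dose, 66.2, 217 and 94.4 in the extract high dose, 71.0, 176 and 174 in the cymopol low dose and 0, 140 and 120 in the extract low dose. The cymopol high dose did not overlap the vehicle and the other 3 groups did, and the difference of 1.48 ± 1.70 (SE) in the cymopol high dose had an adjusted p of 0.68 (limma). The value of 0 was in extract low dose 26, a library in which 34 of the 81 family genes were at 0. Cox7a2, a paralog of the muscle form Cox7a1, ran from 0 to 40.3 FPKM in the vehicle. It ran from 7.80 to 20.4 in the cymopol high dose and 8.29 to 29.3 in the extract high dose. In the low doses it ran from 0 to 57.9 for cymopol and 0 to 10.6 for the extract. Every treated group overlapped the vehicle for this gene. Without vehicle 2 its difference in the cymopol high dose turned from 0.98 to -0.42.

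The other complex IV members are paralogs of restricted tissues and were listed at or near 0. Cox8b, the heart and skeletal muscle form, was above 0 in 3 libraries only, at 9.81 FPKM in extract high dose 21, 2.403 in extract low dose 27 and 2.34 in cymopol low dose 35. Those values rest on an estimated 5, 1 and 1 fragments. Cox7b2, known from testis, was listed at 0.729 FPKM in extract low dose 27 and 0.348 in extract high dose 23 and at 0 elsewhere. Cox6a2, the muscle and heart form, and Cox8c, known from testis, were at 0 in all 15 libraries. Cox6a2, Cox7b2 and Cox8c did not reach 1 FPKM in 3 libraries and were not tested.

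Atp5s, the coupling factor B of ATP synthase, was the single complex V member. It was listed at 0 in the 3 vehicle libraries and at no more than 1.85 FPKM anywhere, with 0.768 in 1 cymopol high dose library, 0.272 and 1.27 in extract high dose libraries, 0.907 and 1.85 in extract low dose libraries and 1.00 in 1 cymopol low dose library. The groups overlapped in every comparison with the vehicle. Its differences were 0.27 ± 0.473 (SE) and 0.51 ± 0.473 in the cymopol and extract high doses.

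**Figure D1:**
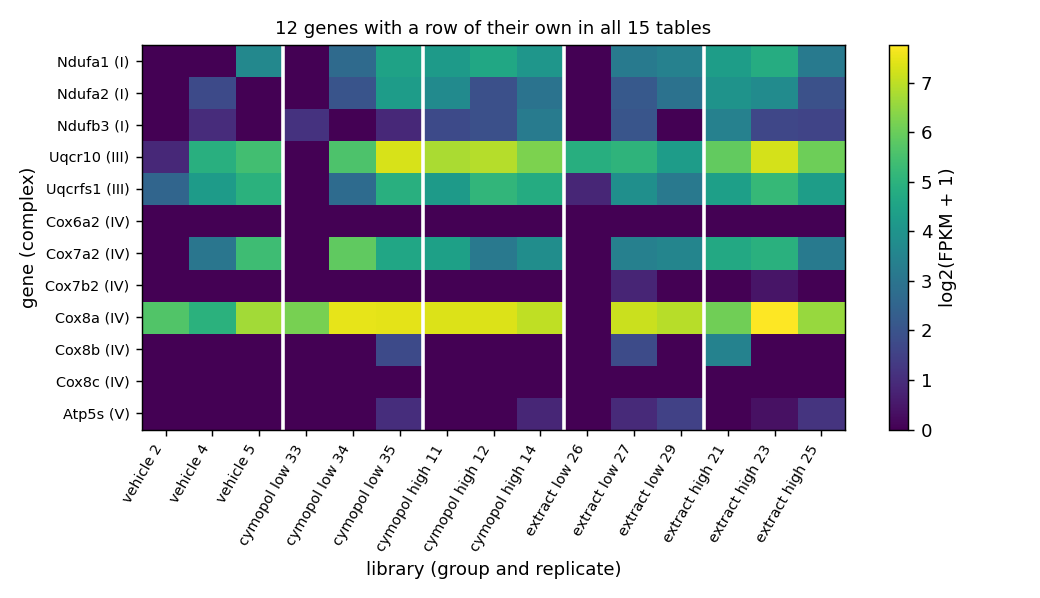
Level of the 12 members in each library, as log2(FPKM + 1), with genes (and their complex) in rows and libraries in columns by group. Uqcr10 and Cox8a are the brightest rows, Cox6a2 and Cox8c are dark in all 15 libraries, and cymopol low dose 33, extract low dose 26 and vehicle 2 are dark for most genes.

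Of the 12 members, 9 passed the filter of 1 FPKM in at least 3 libraries and none was called at an adjusted p under 0.05 (limma) in any of 8 comparisons. Among the 1097 genes tested with rows of their own, this threshold called 0% in the cymopol high dose, 0% in the cymopol low dose, 0.0912% in the extract high dose and 0% in the extract low dose against the vehicle. At an unadjusted p under 0.05, limma gave 2 of the 9 members in the cymopol high dose, Ndufa1 and Ndufb3, and 3 in the extract high dose, the 3 complex I genes, all higher, against 13.8% and 11.8% of all genes tested, and 0 in each low dose. All 3 libraries lay above all 3 vehicle libraries for 5 of the 9 in the cymopol high dose (Ndufa1, Ndufa2, Ndufb3, Uqcr10 and Cox8a), where 19.7% of all genes tested did so, and for 3 in the extract high dose (Ndufa2, Ndufb3 and Uqcr10), where 19.9% did, with the limit on Ndufa2 in vehicle 2 given above. In the low doses 0 of 9 did, against 3.65% of genes for cymopol and 1% for the extract. The median difference of the 9 was 1.48 in the cymopol high dose and 1.46 in the extract high dose, beside 0.67 and 0.60 for all genes tested. It was 0.58 and 0.59 in the cymopol and extract low doses, beside 0.25 and 0. Since a gene high in only 1 group passes the filter through that group, these counts describe the tested genes and not the 12. An exact test of 3 libraries against 3 cannot go below p = 0.1.

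In the family, where matched loci filled the missing rows, 76 of the 81 genes were tested among 11493 genes, and 0 were called in any of the 8 comparisons (limma). The threshold called 0.0174% of all genes in the cymopol high dose, 0% in the cymopol low dose, 0.0087% in the extract high dose and 0% in the extract low dose against the vehicle. The smallest adjusted p of a family gene was 0.18, 0.485, 0.238 and 1 in these comparisons, in the same order. At an unadjusted p under 0.05, 28 family genes were higher in the cymopol high dose (12.5% of all genes), 11 in the cymopol low dose (3.89%), 32 in the extract high dose (10.6%) and 3 in the extract low dose (1.11%), and 2 were lower, both in the extract low dose, where 322 of the 11493 genes were. In 37 of the 76 genes the cymopol high dose lay wholly above the vehicle, against 19.5% of all genes, and in 29 the extract high dose did, against 19.3%. For the low doses the counts were 7 against 3.89% for cymopol and 1 against 1.23% for the extract. The family's share above the vehicle in the high doses was thus larger than that of all genes, with no gene past the adjusted threshold. The family is also higher in level. In the high dose libraries the median FPKM was 11.8 to 24.4 for the 81 genes and 2.23 to 4.86 for all genes tested. The part that this has in the shares was not tested. As for the members, these counts describe the genes that passed the filter.

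These counts depended on the libraries and scaling used. Leaving out vehicle 4, 50 of 76 family genes lay above the vehicle in the cymopol high dose, beside 43.6% of all genes, and 43 in the extract high dose, beside 43.4%. Leaving out vehicle 5, the count was 50 in each, beside 28.9% and 28.7%. With median-of-ratios scaling it was 27 and 30, beside 13.7% and 15.1%. In the extract low dose the count was 20 in place of 1 without library 26, beside 12.1% of all genes. In the cymopol low dose it was 19 in place of 7 without library 33, beside 15.4%.

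By complex, the median difference from the vehicle in the cymopol high dose was 2.11 for complex I (34 tested genes), 1.79 for complex II (4), 2.86 for complex III (8), 1.48 for complex IV (13) and 2.67 for complex V (17), beside 0.81 for all genes. In the extract high dose it was 1.95, 2.21, 2.71, 1.46 and 2.53 in the same order, beside 0.71. In the cymopol low dose the complexes ranged from 0.38 for complex I to 1.44 for complex II, beside 0.23, and in the extract low dose from -0.15 for complex IV to 0.81 for complex V, beside -0.14. Single genes within a complex covered a far wider range than the medians of the complexes, from -0.43 to 5.61 within complex V in the cymopol high dose. No difference between complexes was tested. The log2(FPKM + 1) scale understates the change of low genes, and all genes tested had a lower median level than the family in the high doses. Of the 76 genes, 72 had a difference above 0 in the cymopol high dose and 71 in the extract high dose, beside 79.5% and 77.1% of all genes, and with median-of-ratios scaling 64 and 68 did. That scaling moved the median of all genes from 0.81 to 0.24 and from 0.71 to 0.25.

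**Figure D2:**
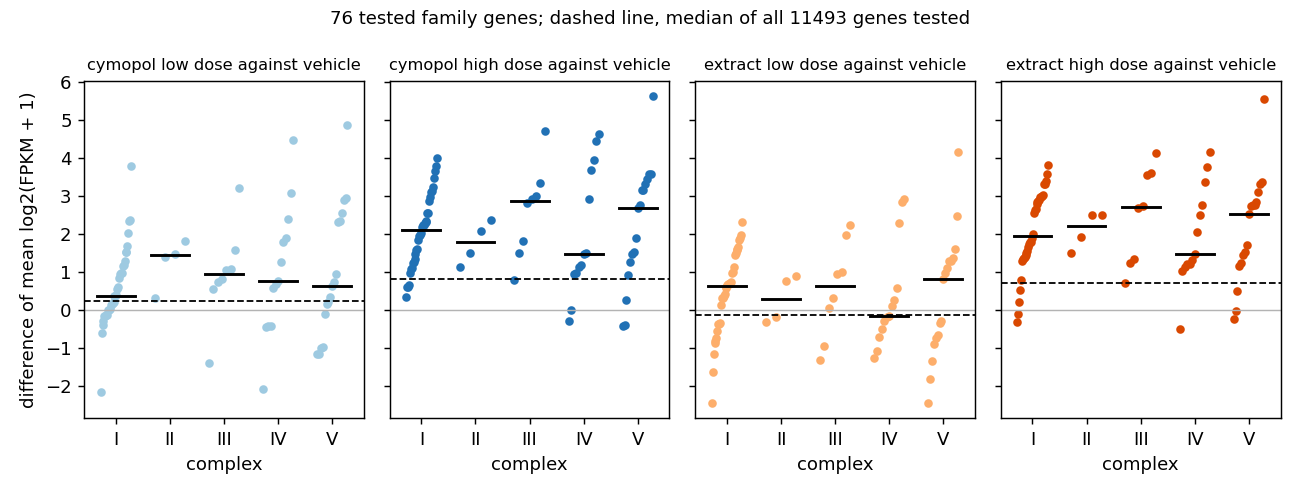
Difference of mean log2(FPKM + 1) from the vehicle for each tested family gene (points, by complex), with the median of the complex (bar) and of all genes tested (dashed line), in 4 panels for the treated groups. In both high doses most points and all 5 bars lie above the dashed line. In the low doses the points spread to both sides of it. There too all 5 bars lie above it for cymopol, and all but that of complex IV for the extract.

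Within complex I, Ndufa4, Ndufa5, Ndufc1 and Ndufv2 were listed at 0 throughout the vehicle, and Ndufs6 in 2 of its 3 libraries. Ndufa5, an accessory subunit of the matrix arm, was at 0 in the 3 vehicle libraries, at 2.84, 20.3 and 7.25 FPKM in the cymopol high dose, while the extract high dose stood at 11.4, 11.7 and 5.06. Ndufv2, an iron-sulfur subunit beside the NADH site, was at 0 in the vehicle, at 4.94, 10.0 and 4.98 in the cymopol high dose, 11.3, 9.74 and 6.41 in the extract high dose, 2.54, 1.67 and 12.6 in the cymopol low dose and 0, 9.13 and 4.85 in the extract low dose. For both genes the high dose groups were clear of the vehicle, and for Ndufa5 the adjusted p was 0.214 in the cymopol high dose and 0.268 with the extract, while for Ndufv2 it was 0.29 and 0.293 (limma). Ndufa4, now assigned to complex IV, was at 0 in the vehicle and in the cymopol low dose, at 3.82 to 6.204 FPKM in the cymopol high dose and 1.35 to 2.47 in the extract high dose. Ndufc1, of the membrane arm, was at 0 in the vehicle and at 3.599 to 27.9 and 5.58 to 22.4 FPKM in the high doses. Its cymopol and extract high dose values rest on an estimated 0.891 to 15.8 and 1.01 to 19.2 fragments. Those of Ndufa4 rest on 6 to 11.9 and 1.99 to 7, and those of Ndufa5 on 2.02 to 15.3 and 4.59 to 14.7. Ndufs6, a zinc-binding subunit, was at 0, 3.38 and 0 FPKM in the vehicle and higher without overlap in 3 treated groups, at 21.4 to 28.03 in the cymopol high dose, 11.7 to 62.2 in the cymopol low dose and 7.43 to 25.0 in the extract high dose.

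Ndufv1 and Ndufs1 are catalytic core subunits of complex I. Ndufv1, which binds NADH, was at 0, 6.80 and 15.5 FPKM in the vehicle, 26.8, 47.6 and 44.2 in the cymopol high dose, while the extract high dose stood at 50.7, 36.2 and 14.8, so that cymopol cleared the vehicle and the extract did not. Ndufs1, the largest iron-sulfur subunit, was at 0, 0 and 34.4 FPKM in the vehicle and at 11.7, 10.1 and 0 in the cymopol high dose. In the libraries with these zeros another assembled locus on its exons held an estimated 3.61 fragments (vehicle 2), 69.55 (vehicle 4) and 28.5 (cymopol high dose 14), while the value in vehicle 5 rests on 1.502, so its groups are not compared. Ndufb10 had the highest mean of the complex I genes, at 3.42, 52.9 and 16.4 FPKM in the vehicle and 55.0, 32.5 and 46.5 in the cymopol high dose. Ndufa4l2, a paralog of Ndufa4 known to be induced by hypoxia, was above 0 in 2 libraries, cymopol high dose 12 (3.29 FPKM) and extract high dose 23 (0.890 FPKM), and in extract high dose 21 another assembled locus on its exons held an estimated 12.9 fragments.

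All 4 succinate dehydrogenase genes of complex II had a value in every library. Sdha, the flavoprotein that oxidises succinate, was at 0, 20.1 and 27.5 FPKM in the vehicle, 11.8, 27.5 and 16.8 in the cymopol high dose, while the extract high dose stood at 37.4, 19.7 and 16.2, and its groups overlapped. Sdhb, the iron-sulfur subunit, was at 0.201, 11.9 and 14.2 FPKM in the vehicle, 31.3, 22.6 and 22.5 in the cymopol high dose, while the extract high dose stood at 43.6, 41.8 and 20.9. Its high dose values all exceeded the vehicle, with differences of 2.08 ± 1.28 (SE, adjusted p = 0.472, limma) and 2.49 ± 1.28 (adjusted p = 0.451, limma). The membrane anchor Sdhc cleared the vehicle in both cymopol doses, at 24.2 to 39.2 FPKM (high) and 15.3 to 28.2 (low) against 0.780 to 14.8. The other anchor, Sdhd, whose promoter is printed above, cleared it in the extract high dose, at 16.0 to 42.8 FPKM against 1.35 to 10.9.

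In complex III, Uqcrq, a small subunit that contacts cytochrome b, had the highest mean, at 0, 90.0 and 0 FPKM in the vehicle, 105, 128 and 117 in the cymopol high dose, while the extract high dose stood at 85.3, 80.9 and 67.9. Vehicle 4 alone thus reached the level of the treated groups, in a gene whose other vehicle values were 0. The difference was 4.70 ± 1.69 (SE, adjusted p = 0.29, limma) in the cymopol high dose and 4.13 ± 1.69 (adjusted p = 0.376, limma) in the extract high dose. Uqcr11, whose promoter holds both motifs, was at 1.15, 0 and 5.99 FPKM in the vehicle, 12.4 to 22.7 in the cymopol high dose and 15.4 to 41.3 in the extract high dose, without overlap. Uqcrb, at the ubiquinone site, was at 0, 82.3 and 0 FPKM in the vehicle and at 41.3 to 47.9 in the cymopol high dose, so that vehicle 4 exceeded all of these. The core proteins Uqcrc1 and Uqcrc2 stood at 31.5 to 50.3 and 23.1 to 44.0 FPKM in the cymopol high dose. Their vehicle values were 3.07 to 28.1 and 0.142 to 17.9. In the extract high dose both overlapped the vehicle, at 27.53 to 52.29 and 15.43 to 44.35 FPKM.

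In complex IV, Cox7c, a small structural subunit (chr13:86044816-86046904), was listed at 0 in the 3 vehicle libraries and in extract low dose 26 and nowhere else. Its values were 13.7, 19.6 and 32.02 FPKM in the cymopol high dose, 22.9, 21.0 and 19.2 in the cymopol low dose, 17.4, 18.5 and 14.2 in the extract high dose. The other 2 extract low dose libraries had 14.2 and 27.7. Few fragments underlie the values of Cox7c. They were an estimated 6.65 to 19.4 in the cymopol high dose and 1.95 to 5.81 in the cymopol low dose. For the extract they were 6.24 to 15.6 in the high dose and at most 4.59 in the low dose. The difference was 4.43 ± 1.17 (SE, adjusted p = 0.189, limma) in the cymopol high dose, 4.46 ± 1.17 (adjusted p = 0.485, limma) in the low dose and 4.14 ± 1.17 (adjusted p = 0.268, limma) in the extract high dose. In a fit without vehicle 2, vehicle 5 and extract low dose 26, which leaves vehicle 4 as the sole control, Cox7c passed the threshold in all 4 comparisons, with adjusted p from 0.0207 to 0.0409 (limma), as did 163 genes in all in the cymopol high dose, 350 in the cymopol low dose, 206 in the extract high dose and 252 in the extract low dose, against 0 to 2 with all libraries. Cox7c shares its span with another annotated gene. Cox5a, a structural subunit, was at 0.494, 12.4 and 0 FPKM in the vehicle and 48.2, 78.8 and 76.7 in the cymopol high dose. The extract high dose stood at 37.4, 49.4 and 25.0, and both high doses were clear of the vehicle. Cox6b1, on the intermembrane side, was likewise clear of the vehicle (0.440 to 21.3 FPKM) at 71.4 to 74.5 and 36.6 to 88.6 FPKM.

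The complex IV paralogs of restricted tissues differed among themselves. Cox7a1, the muscle form, was at 0, 0 and 17.998 FPKM in the vehicle and at 111, 22.1 and 25.6 in the cymopol high dose, against 19.9, 23.9 and 1.67 in the extract high dose, while the extract low dose stood at 3.29, 0 and 0. It cleared the vehicle in the cymopol high dose by 3.94 ± 1.35 (SE, adjusted p = 0.272, limma), with cymopol high dose 11 well above the other libraries of its group. Cox6b2, known from testis, was above 0 in all 6 high dose libraries, at 1.07 to 4.46 FPKM. It was also above 0 in 1 vehicle library (5.19 FPKM), 1 cymopol low dose library (1.65) and 1 extract low dose library (2.45). Its high dose values rest on an estimated 0.123 to 2.10 fragments, and the others on 0.0611 to 0.140. Cox4i2, the lung form, was at 0 in all 15. Cox4i1, its ubiquitous paralog, had no value in every library and is not reported.

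In complex V, Atp5b, the catalytic beta subunit, had the highest FPKM of the whole family (chr10:128083273-128090391). It stood at 12.7, 67.0 and 243 FPKM in the vehicle, 600, 594 and 624 in the cymopol high dose, 635, 767 and 456 in the extract high dose, 15.6, 206 and 463 in the cymopol low dose and 29.1, 259 and 413 in the extract low dose. Every high dose library exceeded every vehicle library, and the difference was 3.32 ± 1.35 (SE) in each high dose, with adjusted p of 0.313 and 0.375 (limma). Atp5a1, the alpha subunit, stood at 12.7 to 41.2 FPKM in the vehicle, 57.6 to 90.4 in the cymopol high dose and 65.8 to 104 in the extract high dose, also without overlap. Atp5mpl, a small proteolipid of the membrane part, was at 0 in the vehicle and above 0 in all 12 treated libraries, at 88.6, 65.4 and 18.6 FPKM in the cymopol high dose, 78.5, 104 and 11.0 in the extract high dose, 3.69 to 143 in the cymopol low dose and 1.55 to 112 in the extract low dose. Its difference of 5.61 ± 1.38 (SE, adjusted p = 0.18, limma) in the cymopol high dose had the smallest adjusted p of the family. With a pseudocount of 0.1 in place of 1 it passed the threshold in both high doses, with adjusted p of 0.0171 and 0.0206 (limma), where 7 and 3 of the 11493 genes passed. Atp5j2, subunit f, was at 0.305, 0 and 0 FPKM in the vehicle and at 11.1 to 14.1 in the cymopol high dose and 3.87 to 14.4 in the extract high dose. Atp5h, subunit d of the peripheral stalk, was at 0, 1.38 and 31.97 in the vehicle, at 40.8 to 68.7 in the cymopol high dose and, overlapping the vehicle, at 16.1 to 57.8 in the extract high dose. Atp5g1, a source of the c ring, was at 0 to 5.23 FPKM in the vehicle, 5.46 to 20.1 in the cymopol high dose and 16.1 to 21.1 in the extract high dose.

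**Figure D3:**
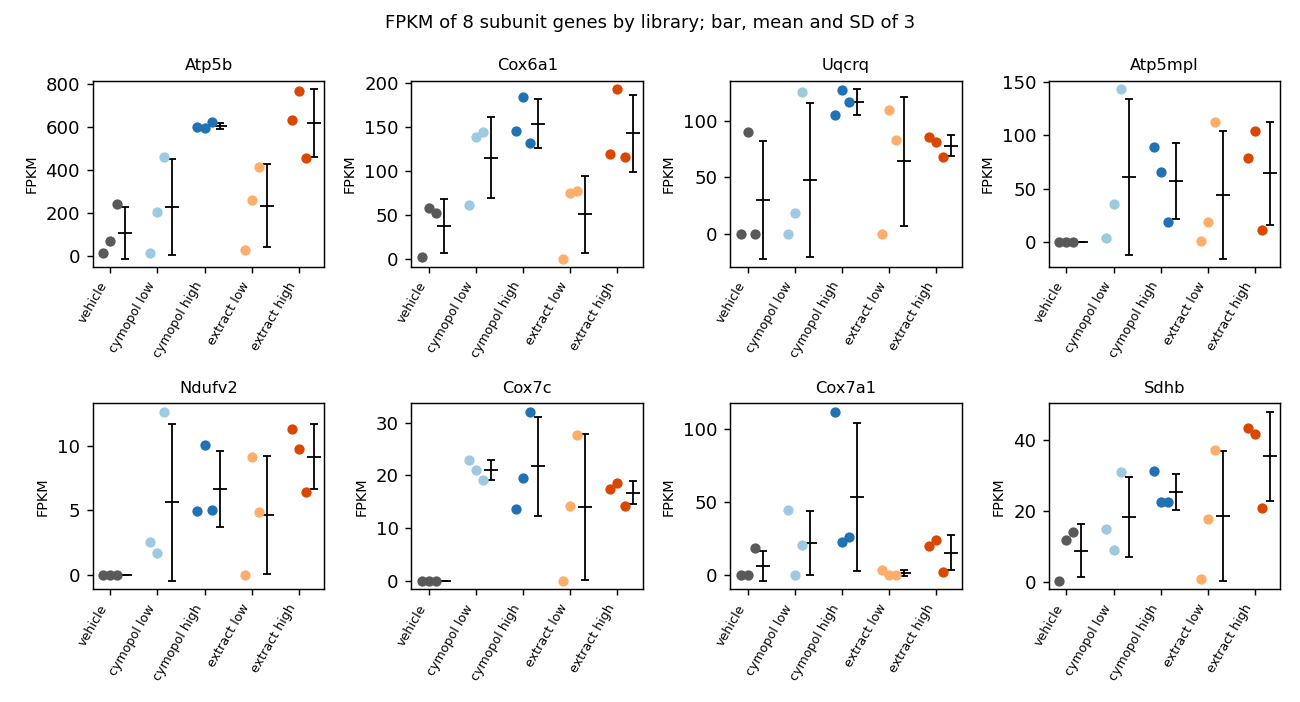
FPKM of 8 subunit genes in each library (points) by group, with mean and SD of the 3 libraries (bar). Atp5b lies at 456 to 767 in the 6 high dose libraries and at 12.7 to 243 in the vehicle, Cox7c and Atp5mpl are at 0 in all 3 vehicle libraries, and 1 vehicle library (replicate 4) carries the vehicle signal of Uqcrq.

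The vehicle libraries differed more from each other than the high dose groups did. The median log2(FPKM + 1) of the 76 tested genes minus that of all genes tested was 0.083, 0.92 and 2.98 in vehicle 2, 4 and 5. It was 2.33 ± 0.151 (SD, n = 3) in the cymopol high dose, 2.35 ± 0.232 in the extract high dose, 1.72 ± 0.768 in the cymopol low dose and 1.64 ± 1.01 in the extract low dose. Vehicle 5, the library with the fewest fragments, had the highest relative level of all 15. There, as in extract low dose 26 and cymopol low dose 33, the median of all genes was 0 FPKM, so nothing was subtracted. In the high dose libraries that median was 2.23 to 4.86 FPKM. The median FPKM of the 81 genes was 5.86 in vehicle 5, below the 11.8 to 24.4 of the high dose libraries. The lowest relative levels after vehicle 2 were in extract low dose 26 (0.48) and cymopol low dose 33 (0.86). The order of the groups by their mean, extract high, cymopol high, cymopol low, extract low, vehicle (1.33 ± 1.49), separated no neighbours beyond their SD. Complex III had the highest relative level in the high dose groups, 3.26 ± 0.337 and 3.20 ± 0.155, and complex I the lowest, 1.69 ± 0.287 and 1.73 ± 0.2.

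**Figure D4:**
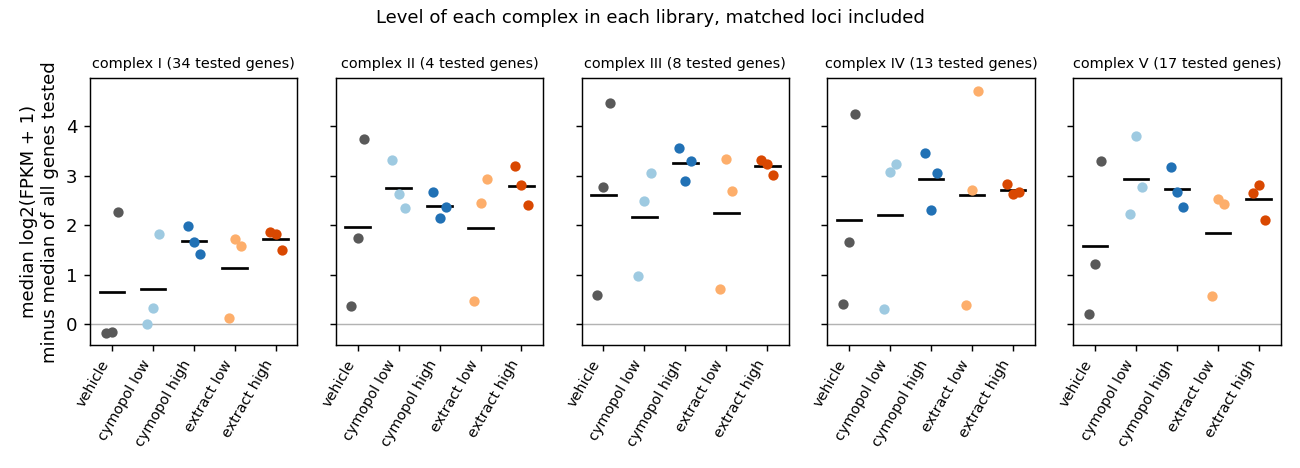
Relative level of each complex in each library (points; bar, mean of 3), as the median log2(FPKM + 1) of its tested genes minus that of all genes tested. The high dose points of each complex lie closer together than its vehicle points, though they run from 2.3 to 3.47 for complex IV in the cymopol high dose. The vehicle points spread from -0.18 to 2.26 for complex I and from 0.59 to 4.48 for complex III. Among the vehicle libraries, vehicle 5 is highest in every complex. In vehicle 5 the median of all genes was 0 FPKM, so nothing was subtracted there.

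Values of 0 were most frequent in the vehicle and the low doses. Of the 1215 listings of the 81 genes (243 a group), 280 were at 0: 100 in the vehicle, 77 in the cymopol low dose, 64 in the extract low dose, 22 in the cymopol high dose and 17 in the extract high dose. In 15 of the 280 another assembled locus lay on the gene's exons. Among tested genes, 71 of 76 were above 0 in all 6 high dose libraries (93.4%), against 73.3% of all 11493 genes, and 30 were above 0 in all 3 vehicle libraries (39.5%), against 32.1%. There were 7 genes (9.21%) listed at 0 in the whole vehicle and above 0 in all 6 high dose libraries, Atp5mpl, Cox7c, Ndufa4, Ndufa5, Ndufc1, Ndufs4 and Ndufv2, against 4.82% of all genes. A gene at 0 in the whole vehicle passes the filter only through treated libraries, so the pattern is partly set by the filter. These shares describe the tested genes and not the 81. The share at 0 was higher in shallow libraries: it was 40.7% in vehicle 5, 42% in extract low dose 26 and 49.4% in cymopol low dose 33, the 3 shallowest libraries, and 4.94% in extract high dose 23, the deepest. Vehicle 4 stood off this order, with 33.3% of the family and 27.1% of all genes at 0 at an estimated 226529 fragments, while extract high dose 21, with 174890, had 7.41% and 13.1%.

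**Figure D5:**
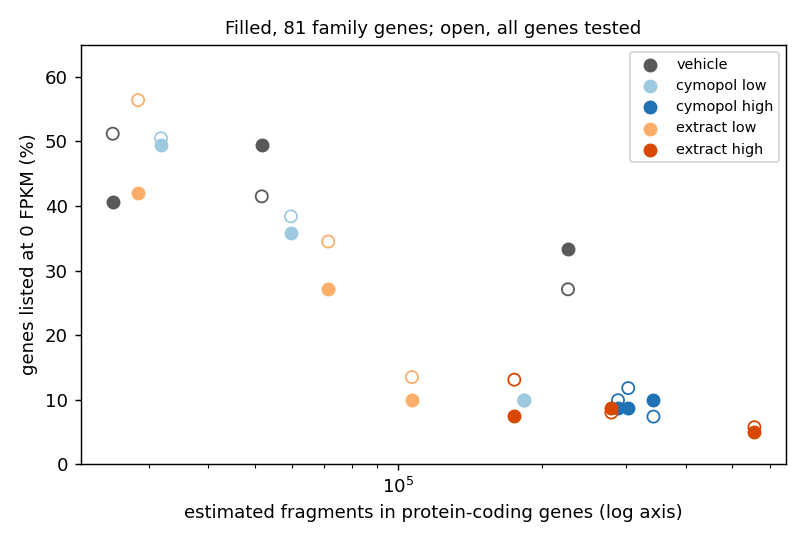
Share of genes listed at 0 FPKM against the estimated fragments in protein-coding genes (log axis), for the 81 family genes (filled) and all genes tested (open), 1 pair of points a library. Shares range from 49.4% to 4.94% for the family and lie lower in deeper libraries, with vehicle 4 above the others of its depth.

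Between doses, none of the 9 tested members was called, against 0% of all genes for cymopol and 0.0912% for the extract (limma). The high dose lay wholly above the low dose in 1 of the 9 for cymopol (7.75% of all genes) and in 2, Uqcr10 and Uqcrfs1, for the extract (14.8%). In the family 0 were called, against 0.0087% of all genes for each agent, and 11 of 76 lay wholly above the low dose for cymopol (9.75%) and 23 for the extract (21%). The median difference of the 76 was 1.32 for cymopol, beside 0.60 for all genes, and 1.65 for the extract, beside 0.89. Of the 76, 71 and 73 were above 0, beside 76.8% and 88% of all genes, and 56 and 53 after median-of-ratios scaling. The difference between the dose effects of cymopol and of the extract had an adjusted p of 1 (limma) for each of the 76 genes.

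Between agents the doses are in different units, moles of cymopol and grams of extract, so the values are set side by side. At the high doses the median difference of the 76 genes, cymopol minus extract, was 0.08, beside 0.11 for all genes, with 44 above 0 (57.5% of all genes), or 35 after median-of-ratios scaling. None was called, against 0.0174% of all genes, and 3 lay wholly higher in cymopol, against 4.49%. Another 4 lay wholly lower, and the share of all genes that did so was not counted. At an unadjusted p under 0.05, 0 were higher and 1 was lower (limma), against 110 higher and 89 lower of the 11493 genes. At the low doses the median was 0.25, beside 0.39, with 45 above 0 (68.7% of all genes), or 31 after scaling, and 0 called, against 0% of all genes, and 3 wholly higher, against 4.58%. Among the members 0 of 9 were called at the high doses (0.0912% of all genes) and at the low doses (0%), and 0 lay wholly higher in cymopol (5.47% and 3.1%).

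Other genes of the pathway were described from lists in the same table. Cytochrome c1 (Cyc1), a complex III subunit outside the symbol rule, was at 5.37, 21.5 and 11.2 FPKM in the vehicle, 48.8, 56.7 and 60.1 in the cymopol high dose, while the extract high dose stood at 63.0, 58.2 and 43.3. Cytochrome c (Cycs) was at 0.0746 to 4.70 FPKM in the vehicle, 3.52 to 7.47 in the cymopol high dose and 6.07 to 13.9 in the extract high dose. Of 34 tested assembly factors 0 were called, and their median difference was 0.55 in the cymopol high dose and 0.84 in the extract high dose, beside 0.81 and 0.71 for all genes. Of 13 citric acid cycle enzymes 0 were called and 13 were above 0 in each high dose, with medians of 1.86 and 1.63. Of 11 tested regulators, among them Nrf1 and Gabpa, 0 were called, with medians of 0.79 and 0.55. Of 13 mitochondrially encoded subunits 6 had a value in every library, and 5 of these were at 0 in all 15, so the mitochondrial part of the chain cannot be set beside the nuclear part.

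Markers of the cell types in the tissue differed between libraries as well. The 14 absorptive colonocyte markers, which are all measured, summed to 195, 1434 and 3377 FPKM in vehicle 2, 4 and 5, to 2589 to 3128 in the cymopol high dose, 1809 to 3186 in the extract high dose, 719 to 3608 in the cymopol low dose and 93.3 to 2244 in the extract low dose. Their median difference was 2.02 in the cymopol high dose and 1.58 in the extract high dose, where the family's was 2.06 and 2.04, with all 14 above 0 in each and 0 called. Not all 14 were above 0 in every library: 1 was at 0 in vehicle 2, 1 in vehicle 4, 3 in extract low dose 26 and 1 in extract low dose 29. Car1 was at 40.5 FPKM or more in every library, while Aqp8 was at 0 in vehicle 4, extract low dose 26 and extract low dose 29. The 5 measured goblet cell markers of 7 summed to 17.5 to 193 FPKM in the vehicle, 305 to 867 in the cymopol high dose and 182 to 830 in the extract high dose, with median differences of 2.21 and 1.98 in the high doses and 0 called. The 9 smooth muscle markers summed to 98.0 to 1165, 627 to 1338 and 436 to 998 FPKM, and the 8 adipocyte markers to 7.34 to 390, 147 to 329 and 24.9 to 80.6, in the same groups. B and T cell markers, 8 in all, summed to 569 FPKM in vehicle 4 and to at most 62.5 elsewhere. The 9 measured striated muscle markers of 10 summed to at most 16.3 FPKM in any library, where Cox7a1 reached 111 and Cox6a2 was at 0. The part that cell composition has in the family's values was not tested.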

How the data were processed

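Each library has 1 deposited table of FPKM, which the authors made in the layout of Cufflinks gene tracking, per the file headers, with a lower and an upper bound. The submitters' processing notes name STAR 2.4.0j and the build GRCm38.p4. Quantifier version, annotation release and any scaling between libraries: not given in the sources used here. Per the labels' protocols, ribosomal RNA was depleted and libraries were made with a low-input kit. No depth is given, and fragments were estimated from the width of each FPKM interval, (2 × FPKM / (upper bound - FPKM)) squared, so depths are approximate and counting error is large where few fragments are given.

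Symbols, positions and exons are those of GENCODE M21, which holds 37764 of the 38189 Ensembl identifiers. A missing row was filled by the assembled locus that was the gene's reciprocal best match with at least 0.5 of the joint span shared. FPKM was analysed as log2(FPKM + 1), on which scale the change of low genes is understated. The fit took genes that had a value in every one of the 15 libraries and reached 1 FPKM in at least 3, and used limma 3.58.1 (R 4.3.3, moderated variances with an intensity trend, 1 mean per group, all 15 libraries), two-sided, with Benjamini-Hochberg adjustment over all genes tested in each of 8 comparisons. The code was tested on simulated data. Many subunit genes have processed pseudogenes, and how reads shared with them were counted is not given.

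The members and lists were chosen with earlier results of these data known. Genes named are, in each complex, the 3 with the smallest p in each high dose comparison, core subunits, isoforms of restricted tissues, and the highest and lowest by mean FPKM. Ndufs4 was named after its values were seen. Values of 1 gene that this rule takes are not reported here.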

Additional observations from a re-analysis of the deposited data

How the results depend on the processing

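No paired analysis was possible because the groups share no replicate numbers. The count of 0 called members held in all 8 comparisons under every alternative run (no filter on level, a pseudocount of 0.1, median-of-ratios scaling, quantile normalization, only the groups compared, matched loci, added exonic pieces, without the 3 libraries with over 20% intergenic fragments, and leaving out each replicate). For the family, the alternatives were chosen after seeing the data. Without those 3 libraries, which leaves 1 vehicle library whose spread is taken from the other groups, 1 family gene was called in the cymopol high dose and 1 in the extract high dose (Cox7c in both), and 2 in each low dose (Cox7c, and Atp5k lower), while 163, 206, 350 and 252 of all genes were called in the cymopol high, extract high, cymopol low and extract low doses. The lower Atp5k rests on vehicle 4 (22.9 FPKM), since vehicle 2 and 5 list it at 0. With a pseudocount of 0.1, 1 was called in each high dose (Atp5mpl), of 7 and 3 genes in all. The cause was not tested. The family's median difference relative to all genes stayed between 0.90 and 1.54 in the cymopol high dose and between 1.03 and 1.74 in the extract high dose.

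Single members changed sign. Uqcrfs1 went to -0.50 and -0.62 in the cymopol high dose and to -0.41 and -0.58 in the extract high dose (median-of-ratios and quantile in turn), Atp5s to -0.092 in the cymopol high dose (quantile), Cox8a to -0.15 in the extract high dose (median-of-ratios), and Cox7a2 to -0.42 in the cymopol high dose without vehicle replicate 2, where leaving out 1 replicate gave -0.42 to 2.26. Depth limits all of this: with 25233 estimated fragments in vehicle 5, a value for a short gene can rest on 1 fragment.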
